A study of Mus musculus with 35 samples.

Results

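The genes described here carry the cAMP and protein kinase A (PKA) signal of striatal projection neurons. They are 10 of the 22099 genes in the deposited striatal count table, chosen by name: Gnal, Gng7, Adcy5, Prkaca, Prkar1b, Prkar2b, Ppp1r1b, Arpp21, Arpp19 and Ptpn5. Each was found under its current symbol, and all 10 were among the 17639 genes that passed the filter on low counts. RNA was sequenced from 35 female C57BL/6J mice, 1 library per mouse, at 299 to 304 days of age. HttQ111/+ mice carry 1 huntingtin allele with an expanded CAG tract knocked into the endogenous locus in every cell, and Htt+/+ littermates carry none. Both genotypes were injected into the peritoneum every week from 2 to 10 months of age with saline (4 uL per g body weight), with a control antisense oligonucleotide (control ASO, 50 mg per kg) or with an antisense oligonucleotide against Htt (Htt ASO, 50 mg per kg). The study compared these mice to ask whether lowering huntingtin outside the brain changes the striatal signs of the mutation. The groups held 6 mice each, except 5 Htt+/+ control ASO mice, which gives 17 Htt+/+ and 18 HttQ111/+ mice. The tissue was the right hemistriatum, apart from 1 left hemistriatum in the Htt+/+ Htt ASO group.

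The receptors of striatal projection neurons that stimulate cAMP synthesis, the dopamine receptor Drd1a and the adenosine receptor Adora2a, act through a G protein whose alpha subunit is Golf, the product of Gnal, and whose gamma subunit is the product of Gng7. This G protein activates adenylyl cyclase 5, encoded by Adcy5, and the cAMP that it makes releases the catalytic subunits of PKA (Prkaca, Prkacb) from regulatory subunits (Prkar1a, Prkar1b, Prkar2a, Prkar2b). PKA then phosphorylates substrates, some of which are concentrated in these neurons. Phosphorylated DARPP-32, encoded by Ppp1r1b, inhibits protein phosphatase 1. Arpp21 and Arpp19 encode cAMP-regulated phosphoproteins, of which ARPP-19 can inhibit protein phosphatase 2A, and Ptpn5 encodes STEP, a tyrosine phosphatase that PKA also phosphorylates.

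In HttQ111/+ mice, 7 of the 10 genes were lower than in Htt+/+ mice (Gnal, Gng7, Adcy5, Ppp1r1b, Arpp21, Arpp19 and Ptpn5), 2 were higher (Prkaca and Prkar1b), and Prkar2b missed the threshold. The differences were unequal along the pathway. The cyclase and the phosphoproteins stood at 63.1 to 75.6% of the Htt+/+ level, the G protein subunits at 88.8 and 91.6%, and the PKA subunits at 96.0 to 118%. These are differences averaged over the 3 treatments, from limma after voom with Benjamini-Hochberg adjustment over all genes tested at a threshold of 0.05. Over all 17639 genes, 18.0% were called lower and 21.8% higher in the same comparison. No gene of the 10 was called in any comparison between treatments.

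The libraries held between 32200158 and 38641924 expected counts (median 35538941), and levels are given below as CPM, the counts scaled to a common library size after TMM normalization, unless a sentence says otherwise. The 10 genes lay at or above the 91.2th percentile of mean level. The median log2 difference between genotypes over all genes was 0.0037. Scaling by library totals alone moved it to 0.0426, and the share of lower genes among those called from 45.3 to 27.9%. Huntingtin mRNA (Htt, listed under its older symbol Hdh) lay between 66.6 and 104 CPM in Htt+/+ mice and between 60.9 and 93.1 CPM in HttQ111/+ mice, a log2 difference of -0.23 (SE 0.055, adjusted p = 0.00100). All 11 markers of medium spiny neurons, the projection neurons of the striatum, were measured, and none was at 0 in every library. Their summed level was 6464 to 7622 CPM in Htt+/+ mice and 4300 to 5120 CPM in HttQ111/+ mice. Choroid plexus markers summed to 1573 CPM in Htt+/+ control ASO replicate 1 and to at most 146 CPM in any other mouse. The sample titles carry the letter L and a number, which the labels do not explain and which is called a lane here. Both genotypes were present in 5 of 6 lanes, whereas lane 7 held 6 HttQ111/+ mice and no Htt+/+ mouse.

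**Figure D1:**
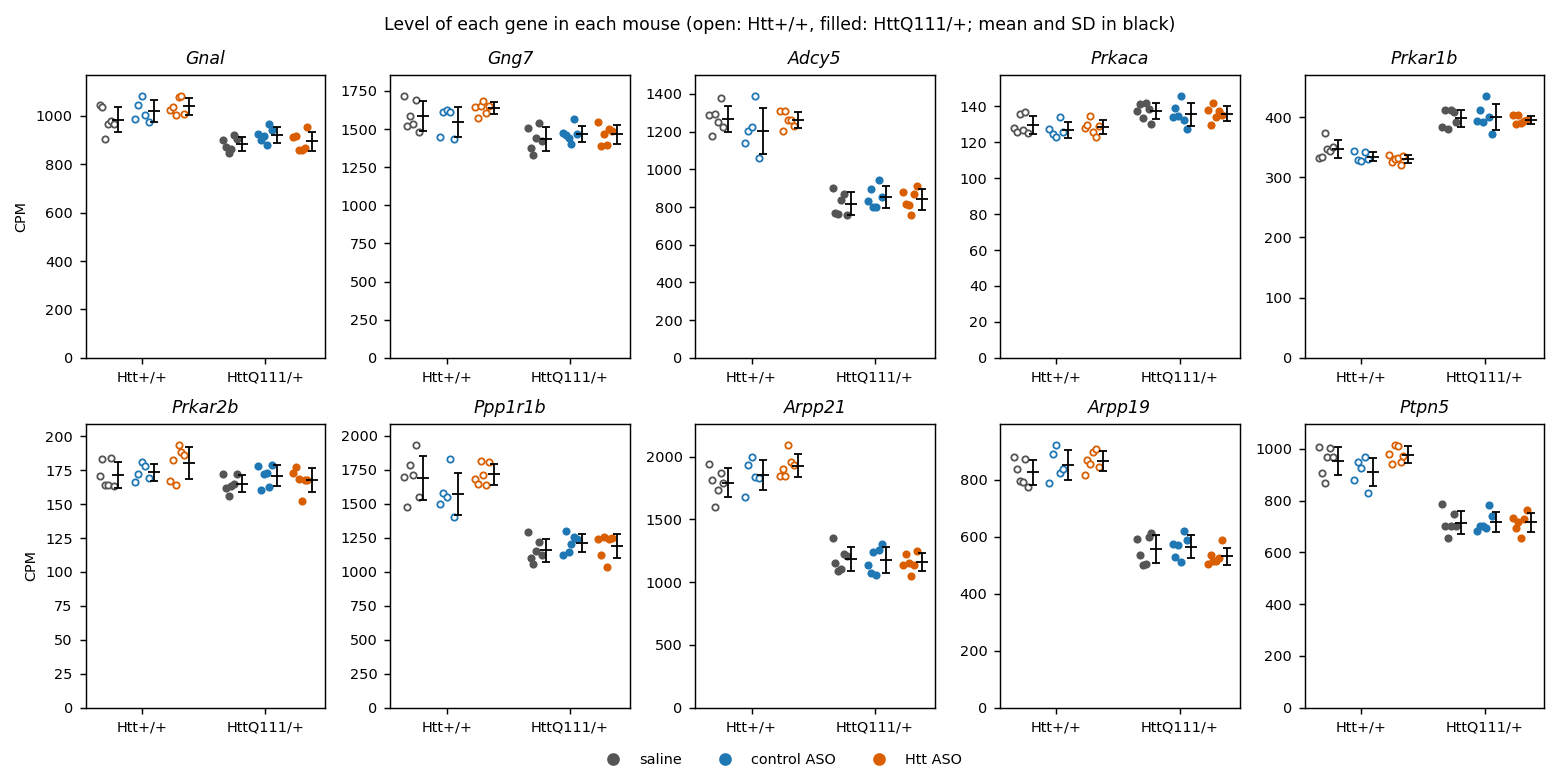
Level of each gene (CPM, linear axis from 0) in each of 35 mice, by genotype and treatment, with the group mean and SD in black. For Adcy5, Ppp1r1b, Arpp21, Arpp19 and Ptpn5 the 18 HttQ111/+ mice lie below the 17 Htt+/+ mice without overlap, for Prkar1b 17 of 18 lie above them, and within a genotype the 3 treatments overlap for every gene.

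Levels of different genes were compared per kilobase of the longest protein-coding transcript in GENCODE M21, since a longer transcript yields more counts. In Htt+/+ saline mice, Ppp1r1b was the most abundant of the 10, at 845 ± 81.0 CPM per kb (SD, n = 6). Gng7 (463 ± 28.3) and Arpp21 (454 ± 29.6 CPM per kb) followed, and their ranges overlapped. Ptpn5 came next at 303 ± 17.5 CPM per kb, apart from its neighbours on both sides. Arpp19, Adcy5 and Gnal, at 204 ± 10.8, 181 ± 9.88 and 171 ± 9.07 CPM per kb, followed, and the ranges of Arpp19 and Adcy5 and those of Adcy5 and Gnal overlapped. The PKA subunits were the least abundant, with Prkar1b at 132 ± 5.85, Prkaca at 56.9 ± 2.28 and Prkar2b at 50.8 ± 2.83 CPM per kb. In HttQ111/+ saline mice, Prkar1b (151 ± 5.53 CPM per kb) stood above Adcy5 (117 ± 8.71) and Arpp19 (138 ± 12.3), and its lowest mouse (144) overlapped the highest Arpp19 mouse (151). The order depends on the transcript length used: per kb of all coding-transcript exons together, Arpp21 moved behind Ptpn5 and Gnal behind Prkar1b.

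Promoter sequence was available for 8 of the 10 genes in RefSeq (GRCm38.p6), and for neither Ppp1r1b nor Gnal. Shown are 150 bases that end before the outermost annotated start of Arpp19 and Gng7, which were lower in HttQ111/+ mice, and of Prkaca, which was higher. Capitals mark the half-site of the cAMP response element (TGACG, or CGTCA on the other strand) and the GC box (GGGCGG, or CCGCCC on the other strand), and each sequence runs 5′ to 3′ toward the start.
Arpp19, chr9:75037464-75037613, plus strand: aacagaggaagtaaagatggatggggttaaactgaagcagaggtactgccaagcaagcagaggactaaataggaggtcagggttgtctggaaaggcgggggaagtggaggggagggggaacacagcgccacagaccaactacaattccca
Gng7, chr10:81014946-81015095, minus strand: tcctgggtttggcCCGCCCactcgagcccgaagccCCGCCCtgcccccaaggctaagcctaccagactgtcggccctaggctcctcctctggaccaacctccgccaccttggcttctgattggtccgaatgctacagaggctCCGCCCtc
Prkaca, chr8:83972828-83972977, plus strand: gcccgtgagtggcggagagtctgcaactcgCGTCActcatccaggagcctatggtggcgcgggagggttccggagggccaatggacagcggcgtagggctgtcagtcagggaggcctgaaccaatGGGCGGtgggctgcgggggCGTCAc
The Arpp19 stretch held neither motif. The Gng7 stretch held GC boxes, and the Prkaca stretch held both motifs. Over the 25 windows of 250 bases listed for the 8 genes, 5 windows of 4 genes held the half-site on either strand and 8 windows of 6 genes held the GC box. Among all 32851 windows of this length, 17.8% held the half-site and 32.7% the GC box. The full palindrome TGACGTCA was in 0 of the 25 windows and in 1.55% of all windows. These matches describe letters only, and the windows of a gene with several starts can overlap.

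Gnal, the alpha subunit that couples Drd1a and Adora2a to adenylyl cyclase, was modestly lower in HttQ111/+ mice. It ranged from 905 to 1084 CPM (median 1008) in 17 Htt+/+ mice and from 844 to 968 CPM (median 902) in 18 HttQ111/+ mice. The ranges overlapped, with 10 HttQ111/+ mice below every Htt+/+ mouse. The log2 difference was -0.17 (SE 0.0199, adjusted p = 1.44e-08), or 88.8% of the Htt+/+ level with a 95% interval of 86.4 to 91.4%. Gng7, the gamma subunit that pairs with Golf, showed a smaller difference of the same sign. Its levels ran from 1432 to 1720 CPM (median 1613) in Htt+/+ mice and from 1330 to 1566 CPM (median 1466) in HttQ111/+ mice, and 6 HttQ111/+ mice lay below every Htt+/+ mouse. The log2 difference of Gng7 was -0.13 (SE 0.0234, adjusted p = 4.42e-05), or 91.6% of the Htt+/+ level (88.7 to 94.7%).

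The other stimulatory alpha subunit, Gnas, differed from Gnal in sign. Gnas was 319 to 411 CPM in Htt+/+ mice and 365 to 437 CPM in HttQ111/+ mice, and its log2 difference of 0.07 (SE 0.028, adjusted p = 0.055) missed the threshold. Within each library, the log2 ratio of Gnal to Gnas was 1.44 ± 0.156 (SD) in 17 Htt+/+ mice and 1.20 ± 0.109 in 18 HttQ111/+ mice. The difference of this ratio was -0.24 (permutation of genotype within treatments, 100000 resamples, two-sided p = 1e-05, the smallest they can give, adjusted p = 2e-05 over 5 ratios). The exact permutation p of this ratio was 0.0173 in saline, 0.039 in control ASO and 0.00649 in Htt ASO mice. A ratio within a library does not depend on scaling, but it shows unequal change and not which of the genes changed.

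Adcy5, the main adenylyl cyclase of striatum, fell outside the Htt+/+ range in every HttQ111/+ mouse. In Htt+/+ mice its lowest, median and highest levels were 1175, 1269 and 1379 CPM with saline and 1203, 1261 and 1311 CPM with Htt ASO. The 5 Htt+/+ control ASO mice had 1142, 1204, 1222, 1391 and 1060 CPM. In HttQ111/+ mice the corresponding values were 760, 803 and 903 CPM with saline, 799, 843 and 943 CPM with control ASO, and 759, 842 and 910 CPM with Htt ASO. The highest HttQ111/+ mouse (943 CPM) lay below the lowest Htt+/+ mouse (1060 CPM). The log2 difference was -0.57 (SE 0.0315, adjusted p = 2.85e-16), or 67.2% of the Htt+/+ level (64.3 to 70.3%).

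The other adenylyl cyclases moved less. Of 9 listed, 8 were tested, 3 were lower in HttQ111/+ mice and none was called higher, with a median log2 difference of -0.06 against 0.0037 over all genes. The called cyclases were Adcy9 (log2 difference -0.24, SE 0.032, adjusted p = 2.10e-07), Adcy4 (-0.17, SE 0.048) and Adcy1 (-0.14, SE 0.041). Adcy9 was 64.4 ± 4.19 CPM in Htt+/+ and 54.6 ± 3.52 CPM in HttQ111/+ mice (SD, n = 17 and 18). The log2 ratio of Adcy5 to the sum of the other cyclases was 1.41 ± 0.118 in Htt+/+ and 0.94 ± 0.108 in HttQ111/+ mice, and no HttQ111/+ mouse reached the lowest Htt+/+ mouse (1.07 against 1.19). This difference of -0.46 had a permutation p of 1e-05 (adjusted p = 2e-05), and the exact permutation p was 0.00216 in each of the 3 treatments, the smallest that these group sizes allow.

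The PKA subunits were the only members that were higher in HttQ111/+ mice, and they did not move as a unit. Prkar1b, a regulatory subunit found mainly in neurons, was 332, 345 and 374 CPM (lowest, median and highest) in Htt+/+ saline mice and 320, 331 and 337 CPM in Htt+/+ Htt ASO mice. The Htt+/+ control ASO mice had 343, 329, 327, 342 and 331 CPM. In HttQ111/+ mice, the levels were 380, 400 and 412 CPM with saline, 371, 397 and 436 CPM with control ASO, and 388, 395 and 404 CPM with Htt ASO. All but 1 of the 18 HttQ111/+ mice lay above the highest Htt+/+ mouse, which was a saline mouse. The log2 difference of Prkar1b was 0.24 (SE 0.0177, adjusted p = 4.38e-13), or 118% of the Htt+/+ level (115 to 121%).

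Prkaca, a catalytic subunit, ranged from 123 to 137 CPM (median 127) in Htt+/+ mice and from 127 to 146 CPM (median 136) in HttQ111/+ mice. The ranges overlapped, with 9 HttQ111/+ mice above every Htt+/+ mouse. The log2 difference was 0.09 (SE 0.0182, adjusted p = 0.000243), or 106% of the Htt+/+ level (103 to 109%). Prkar2b, another regulatory subunit of brain, ranged from 164 to 193 CPM (median 172) in Htt+/+ mice and from 152 to 179 CPM (median 168) in HttQ111/+ mice. Its log2 difference of -0.06 (SE 0.0244, 95% interval -0.11 to -0.01, adjusted p = 0.0514) missed the threshold. It was called with the edgeR quasi-likelihood test (-0.06, adjusted p = 0.0482) and with DESeq2 (-0.06, adjusted p = 0.0338), and over 46 alternatives its adjusted p ran from 0.0207 to 0.518, with 16 under the threshold.

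The remaining PKA genes mostly stood higher in HttQ111/+ mice: of 6 tested, 4 were called higher and 1 lower, with a median log2 difference of 0.08. Prkar2a, a regulatory subunit, was 40.5 ± 2.35 CPM in Htt+/+ and 46.0 ± 1.70 CPM in HttQ111/+ mice (log2 difference 0.18, SE 0.024, adjusted p = 1.41e-07). Prkar1a (0.06, SE 0.012), the catalytic Prkacb (0.09, SE 0.020) and the PKA inhibitor Pkia (0.12, SE 0.029) were also higher, while the inhibitor Pkig was lower (-0.19, SE 0.026). The balance of the regulatory subunits shifted. The log2 ratio of Prkar2b to Prkar1b was -0.94 ± 0.116 in Htt+/+ and -1.23 ± 0.0887 in HttQ111/+ mice, a difference of -0.30 (permutation p = 1e-05, adjusted p = 2e-05). The summed regulatory against the summed catalytic subunits did not differ at the threshold, at 0.55 ± 0.0501 in Htt+/+ and 0.56 ± 0.0333 in HttQ111/+ mice, a difference of 0.02 (permutation p = 0.256, adjusted p = 0.256). Its exact permutation p was 0.647 in saline, 0.331 in control ASO and 0.0346 in Htt ASO mice. Of the A kinase anchoring proteins, which tether PKA, 6 of 12 tested were lower and none was called higher (median -0.10). Akap8l (-0.20, SE 0.019), Akap9 (-0.35, SE 0.043), Akap11 (-0.09, SE 0.027) and Akap13 (-0.35, SE 0.091) had the smallest adjusted p among them.

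**Figure D2:**
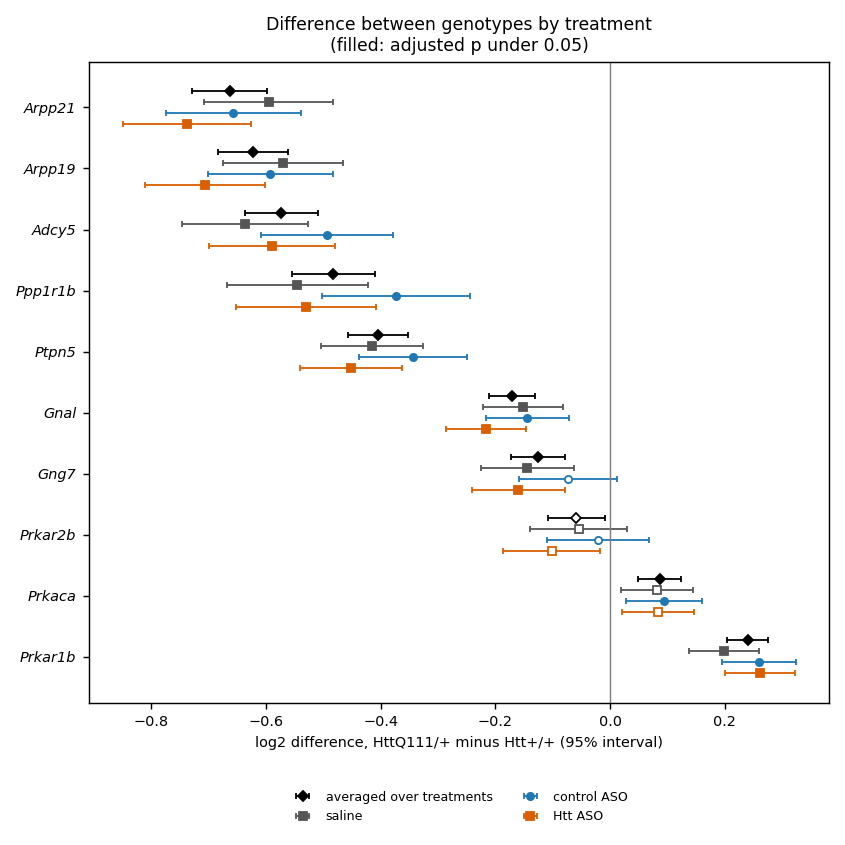
Log2 difference between HttQ111/+ and Htt+/+ mice for each gene with its 95% interval, averaged over treatments and within each treatment, filled where the adjusted p was under 0.05. The averaged differences run from -0.66 (Arpp21) to 0.24 (Prkar1b), and Gng7 with control ASO, Prkaca with saline and with Htt ASO, and Prkar2b throughout are open.

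Averaged over treatments, the PKA substrates Arpp21 and Arpp19 had the lowest levels relative to Htt+/+ mice. The intervals of both overlapped that of Adcy5, and in saline mice Adcy5 was lowest (64.4% against 66.2% for Arpp21 and 67.4% for Arpp19). Arpp21 was 1601, 1804 and 1943 CPM (lowest, median and highest) with saline and 1843, 1918 and 2091 CPM with Htt ASO in Htt+/+ mice. The 5 Htt+/+ control ASO mice had 1682, 1932, 1999, 1839 and 1829 CPM. The HttQ111/+ mice had 1092, 1179 and 1350 CPM with saline, 1057, 1191 and 1302 CPM with control ASO, and 1048, 1144 and 1246 CPM with Htt ASO. Every HttQ111/+ mouse was below every Htt+/+ mouse. The log2 difference of Arpp21 was -0.66 (SE 0.0324, adjusted p = 1.84e-17), or 63.1% of the Htt+/+ level (60.3 to 66.1%).

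Arpp19 was lower by a similar amount, although its product is not confined to striatum. In Htt+/+ mice it was 775, 819 and 879 CPM with saline and 816, 862 and 910 CPM with Htt ASO, and the 5 control ASO mice had 789, 890, 922, 824 and 839 CPM. In HttQ111/+ mice it was 502, 565 and 613 CPM with saline, 511, 572 and 621 CPM with control ASO, and 506, 520 and 590 CPM with Htt ASO. The genotypes did not overlap. The log2 difference of Arpp19 was -0.62 (SE 0.0300, adjusted p = 1.32e-17), or 64.9% of the Htt+/+ level (62.3 to 67.7%). Within libraries, the log2 ratio of Arpp21 to Arpp19 was 1.13 ± 0.050 in Htt+/+ and 1.09 ± 0.0697 in HttQ111/+ mice, a difference of -0.04 (permutation p = 0.0459, adjusted p = 0.0574).

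Ppp1r1b, the gene of DARPP-32, also separated the genotypes in full. Its lowest, median and highest levels in Htt+/+ mice were 1478, 1702 and 1929 CPM with saline and 1635, 1696 and 1816 CPM with Htt ASO, and the control ASO mice had 1496, 1578, 1550, 1825 and 1405 CPM. The HttQ111/+ mice had 1057, 1137 and 1292 CPM with saline, 1122, 1222 and 1297 CPM with control ASO, and 1036, 1240 and 1253 CPM with Htt ASO. The highest HttQ111/+ mouse (1297 CPM) lay below the lowest Htt+/+ mouse (1405 CPM). The log2 difference was -0.48 (SE 0.0354, adjusted p = 3.71e-13), or 71.6% of the Htt+/+ level (68.1 to 75.2%).

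Ptpn5, the gene of STEP, completed the genes without overlap. In Htt+/+ mice it was 868, 968 and 1007 CPM with saline and 941, 977 and 1014 CPM with Htt ASO, and the control ASO mice had 881, 950, 928, 967 and 831 CPM. In HttQ111/+ mice it was 656, 701.2 and 785 CPM with saline, 684, 702.5 and 785 CPM with control ASO, and 656, 724 and 765 CPM with Htt ASO. The highest HttQ111/+ mouse (785 CPM) lay below the lowest Htt+/+ mouse (831 CPM). The log2 difference was -0.40 (SE 0.0257, adjusted p = 9.82e-15), or 75.6% of the Htt+/+ level (72.9 to 78.4%).

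Thus 5 of the 10 genes were lower without overlap between the 18 HttQ111/+ and 17 Htt+/+ mice, and none was higher without overlap. Among all genes tested, 1.28% were lower and 0.930% higher without overlap. The median log2 difference of the 10 genes was -0.29, against 0.0037 over all genes. The 10 genes were chosen by name with earlier results of these data known, so this count says nothing about how often such a list would move. The summed level of the medium spiny neuron markers moved with these differences, with 9 of the 11 markers called lower, 1 higher (Tac1, log2 difference 0.13, SE 0.027) and 1 not called. In bulk tissue, fewer cells of a type and less RNA per cell cannot be told apart, and the part of cell number in these differences was not tested. Markers of astrocytes (866 to 984 CPM summed in Htt+/+ and 851 to 951 in HttQ111/+ mice), of striatal interneurons (232 to 272 and 216 to 251 CPM) and of microglia (315 to 370 and 282 to 342 CPM) overlapped between genotypes. Oligodendrocyte markers summed to 9018 to 12070 and 8610 to 10513 CPM, and those of cortical excitatory neurons to 18.2 to 83.5 and 19.7 to 89.3 CPM.

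Within the 5 lanes that held both genotypes, the difference kept its sign in every lane for all 10 genes. It ran from -0.63 to -0.56 for Adcy5, from -0.74 to -0.50 for Arpp21 and from -0.67 to -0.46 for Arpp19. For Ppp1r1b it ran from -0.54 to -0.40, and for Ptpn5 from -0.51 to -0.33. The differences of Gnal (-0.20 to -0.05), Gng7 (-0.19 to -0.08), Prkar2b (-0.06 to -0.00069) and Prkaca (0.04 to 0.10) varied relatively more. That of Prkar1b ran from 0.19 to 0.24. These are differences of mean log2 CPM with few mice per lane and no test.

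The genes upstream and downstream of the 10 members were grouped in 11 lists by function. Over the 126 genes of these lists that were tested, 45 (35.7%) were lower and 25 (19.8%) higher in HttQ111/+ mice, with a median log2 difference of -0.05. These shares stand beside the 18.0 and 21.8% over all genes. The lists share the tissue's cell mixture, and no list was tested as a set.

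**Figure D3:**
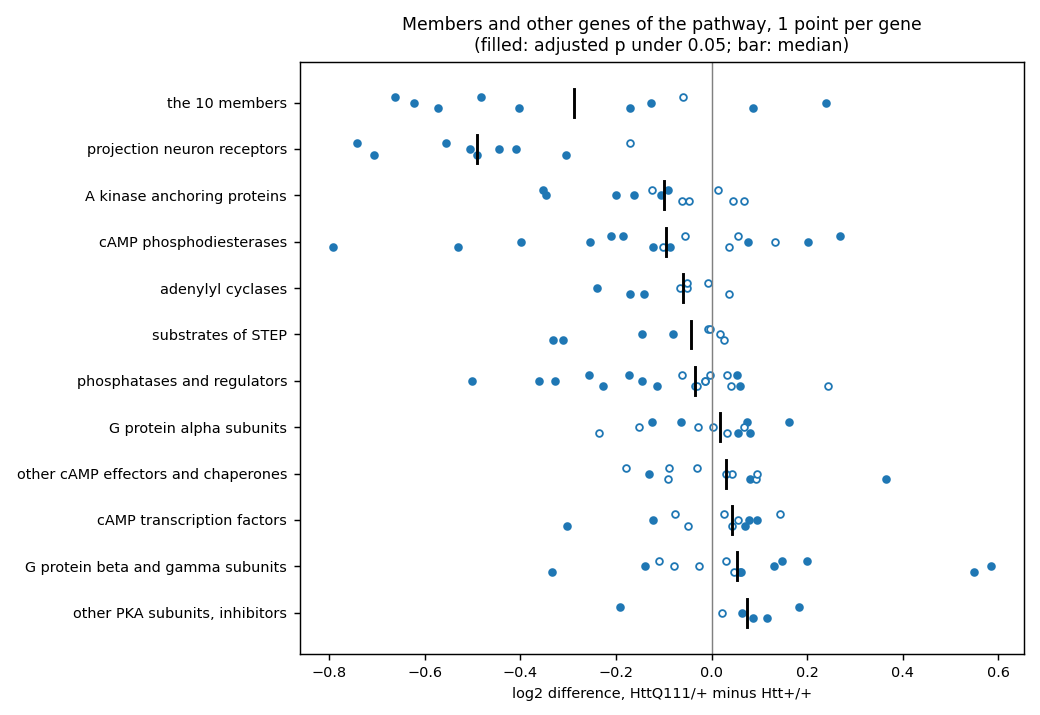
Log2 difference between HttQ111/+ and Htt+/+ mice, averaged over treatments, for the 10 members and for 11 lists of pathway genes, 1 point per gene, filled where the adjusted p was under 0.05, with the median as a bar. The receptor list has the lowest median (-0.49), the members lie at -0.29, and the other PKA subunits and inhibitors have the highest median (0.08).

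Receptors of projection neurons that act on adenylyl cyclase were lower almost throughout, with 8 of 9 tested called lower and a median of -0.49. The examples of smallest adjusted p were the adenosine receptor Adora2a (278 ± 23.8 CPM in Htt+/+ and 170 ± 12.6 in HttQ111/+ mice, log2 difference -0.71, SE 0.037), the dopamine D2 receptor Drd2 (-0.50, SE 0.027), the orphan receptor Gpr6 (-0.56, SE 0.030) and the cannabinoid receptor Cnr1 (-0.74, SE 0.042). The list holds receptors that stimulate and receptors that inhibit the cyclase, so its direction is not a direction of signalling. The mu opioid receptor Oprm1, at 1.15 ± 0.528 CPM in Htt+/+ and 1.01 ± 0.489 CPM in HttQ111/+ mice, was not called. Drd1a, Drd2, Adora2a and Gpr6 are also among the medium spiny neuron markers above.

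G protein subunits went both ways. Of 12 alpha subunits besides Gnal, 2 were lower and 4 higher (median 0.02), with Gnai1, an inhibitory alpha subunit, higher (0.16, SE 0.021, adjusted p = 1.69e-07), Gnai2 higher (0.08, SE 0.024), and Gnao1 (-0.13, SE 0.024) and Gna13 (-0.06, SE 0.021) lower. Of 14 beta and gamma subunits besides Gng7, 2 were lower and 7 higher (median 0.05). In contrast to Gng7, the gamma subunits Gng3 (60.1 ± 3.49 CPM in Htt+/+ and 87.9 ± 5.46 in HttQ111/+ mice, log2 difference 0.55, SE 0.029) and Gng4 (0.59, SE 0.038) were higher. The beta subunits differed in sign, with Gnb5, the partner of RGS proteins, lower (-0.33, SE 0.024) and Gnb4 higher (0.20, SE 0.032).

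Phosphodiesterases, which break down cAMP, were lower in 8 and higher in 3 of 16 tested (median -0.09). Pde10a (2274 ± 174 CPM in Htt+/+ and 1314 ± 109 in HttQ111/+ mice, -0.79, SE 0.037), Pde1b (-0.53, SE 0.027), Pde7b (-0.40, SE 0.032) and Pde2a (-0.18, SE 0.022) had the smallest adjusted p. Pde4d (0.27, SE 0.038) had the largest difference among those that were higher. Pde4d was listed at 17.4 ± 1.49 CPM in Htt+/+ and 20.9 ± 1.64 CPM in HttQ111/+ mice.

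Phosphatases and their regulators were lower in 8 and higher in 2 of 19 tested (median -0.04). The catalytic and regulatory subunits of calcineurin, Ppp3ca (1538 ± 60.2 CPM in Htt+/+ and 1199 ± 62.2 in HttQ111/+ mice, -0.36, SE 0.022) and Ppp3r1 (-0.23, SE 0.023), were lower, as were the protein phosphatase 1 subunit Ppp1ca (-0.33, SE 0.023) and its inhibitor Ppp1r1a (-0.50, SE 0.032). Ensa, the close relative of Arpp19, was slightly higher (0.05, SE 0.015, adjusted p = 0.00391). Among the substrates of STEP, 4 of 8 were lower and none was called higher (median -0.04), among them Dlgap3 (-0.31, SE 0.051), Ptk2b (-0.15, SE 0.027) and Grin2b (-0.33, SE 0.062). Grin2b was listed at only 4.30 ± 0.603 CPM in Htt+/+ mice.

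Transcription factors and cofactors of the cAMP response showed small differences, with 2 lower and 3 higher of 11 tested (median 0.04). The inducible kinase Sik1 (older symbol Snf1lk) was lower (-0.30, SE 0.076), Crem was lower (-0.12, SE 0.042), and Creb1 (0.08, SE 0.026) and Crtc3 (0.09, SE 0.037) were higher. Of 11 other effectors and chaperones, 1 was lower and 2 were higher (median 0.03). Ric8b, the chaperone of Golf, was lower (-0.13, SE 0.022, adjusted p = 1.31e-05), at 153 ± 7.47 CPM in Htt+/+ and 140 ± 5.82 CPM in HttQ111/+ mice. Its relative Ric8 (0.08, SE 0.021) and the cAMP-gated channel Hcn3 (0.37, SE 0.048) were higher.

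The genotype difference was then read within each treatment. In saline mice, 7 of the 10 genes were called lower and 1 higher, against 8.78 and 8.67% of all genes. In control ASO mice, 6 were called lower and 2 higher, against 8.46 and 10.1%. In Htt ASO mice, 7 were called lower and 1 higher, against 10.2 and 10.9%. The genes that crossed the threshold were Gng7, which was not called with control ASO (-0.07, SE 0.0418, adjusted p = 0.233), and Prkaca, which was called with control ASO (0.09, adjusted p = 0.0410) and missed it with saline (0.08, adjusted p = 0.0649) and with Htt ASO (0.08, adjusted p = 0.0524). The control ASO call of Prkaca held in 22 of the 35 fits that left out 1 mouse, and was lost, for example, without Htt+/+ control ASO replicate 2 (adjusted p = 0.0920) or HttQ111/+ control ASO replicate 4 (adjusted p = 0.132). Without Htt+/+ control ASO replicate 1, the mouse with high choroid plexus markers, the control ASO difference was -0.51 for Adcy5, -0.39 for Ppp1r1b and -0.69 for Arpp21, beside -0.49, -0.37 and -0.66 with it. By the exact permutation test of log2 CPM, 6, 6 and 8 of the 10 genes reached the smallest two-sided p that these group sizes allow (0.00216) with saline, control ASO and Htt ASO. The share of all genes that reach this p was not computed, so these counts cannot be set against it.

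Whether the genotype difference itself changed with treatment was tested directly. The moderated F test of the genotype by treatment interaction called 0 of the 10 genes and 0% of all genes, of which 945 had an unadjusted p under 0.05. Among the 10 genes, the lowest adjusted p was 0.876, for Ppp1r1b (F = 2.34, unadjusted p = 0.112) and Arpp19 (F = 2.02, unadjusted p = 0.149). The genotype difference of Arpp21 was -0.59 with saline, -0.66 with control ASO and -0.74 with Htt ASO, and that of Ppp1r1b was -0.54, -0.37 and -0.53. The interaction term of Htt ASO against control ASO was -0.16 for Ppp1r1b (95% interval -0.34 to 0.02) and -0.11 for Arpp19 (-0.26 to 0.04), so that interactions of such size were within the error.

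Htt ASO was compared with control ASO in each genotype, which asks whether the huntingtin-lowering treatment moved the pathway in striatum. Limma called 0 of the 10 genes in HttQ111/+ mice, against 0.357% of all genes, and none of the 10 had an unadjusted p under 0.05. It called 0 of the 10 in Htt+/+ mice, against 0.295% of all genes, where Ppp1r1b (0.13, SE 0.0631, adjusted p = 0.937) and Ptpn5 (0.10, SE 0.0458, adjusted p = 0.889) had an unadjusted p under 0.05. Averaged over genotypes it called 0 of the 10, against 0.935% of all genes. The edgeR and DESeq2 fits also called 0 of the 10 in each of these comparisons. Ptpn5 in Htt+/+ mice was 911 ± 55.5 CPM with control ASO (n = 5) and 978 ± 31.3 CPM with Htt ASO (n = 6), with an exact permutation p of 0.0281 among 20 such comparisons, and the groups overlapped.

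**Figure D4:**
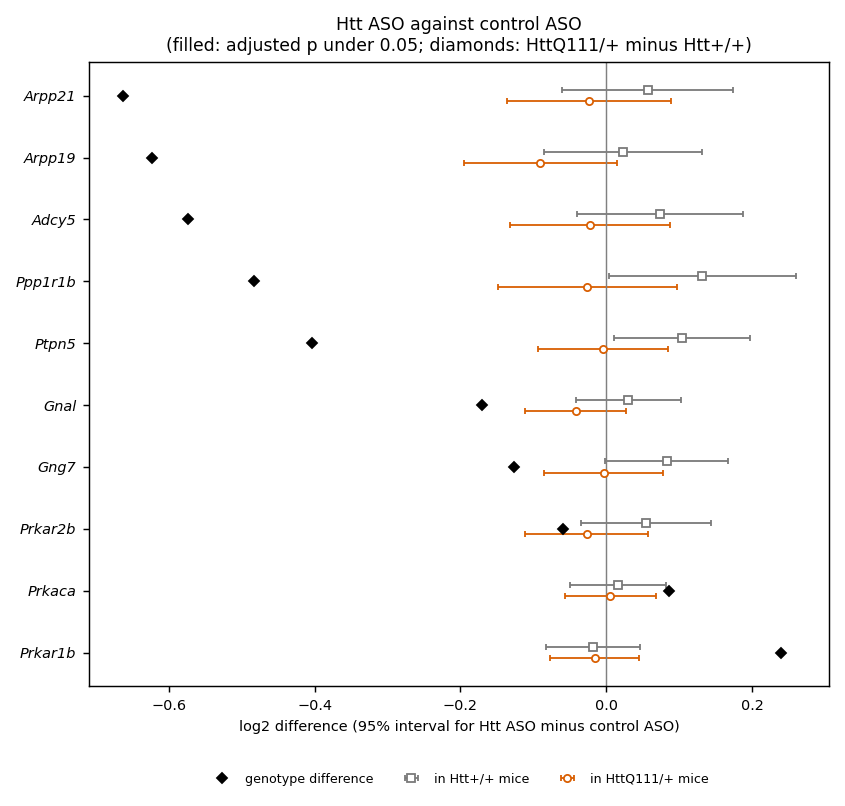
Htt ASO minus control ASO on the log2 scale for each gene with its 95% interval, in Htt+/+ (squares) and HttQ111/+ mice (circles), with the genotype difference as a diamond. All symbols for the ASO are open, since no gene was called, and in HttQ111/+ mice the differences lie between -0.09 (Arpp19) and 0.01 (Prkaca).

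The precision of this comparison can be set beside the genotype difference. In HttQ111/+ mice, Htt ASO minus control ASO was -0.02 for Adcy5 (95% interval -0.13 to 0.09), -0.02 for Arpp21 (-0.14 to 0.09), -0.09 for Arpp19 (-0.19 to 0.01), -0.03 for Ppp1r1b (-0.15 to 0.10) and -0.0046 for Ptpn5 (-0.09 to 0.08). As a share of the averaged genotype difference, a move toward the Htt+/+ level had an upper limit of 15.2% for Adcy5, 13.4% for Arpp21, 2.25% for Arpp19, 20.1% for Ppp1r1b and 21.0% for Ptpn5. These limits leave out the error of the genotype difference itself. For Gng7, Prkaca and Prkar2b, whose genotype differences were small, the upper limits were 61.1, 66.6 and 96.6%, and for Gnal and Prkar1b they were 15.9 and 32.2%. The averaged genotype difference includes the Htt ASO mice themselves. With control ASO alone it was smaller in size for every gene but Prkaca and Prkar1b, for example -0.37 for Ppp1r1b, -0.07 for Gng7 and -0.02 for Prkar2b. Taken against that difference, the limits of these genes would be higher.

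Htt ASO against saline likewise called 0 of the 10 genes, averaged over genotypes (1.47% of all genes called), in HttQ111/+ mice (0.556%) and in Htt+/+ mice (0.726%). Gnal and Prkar1b had an unadjusted p under 0.05 in Htt+/+ mice, and the largest difference among the 10 there was 0.11 on the log2 scale. Gnal was 983 ± 52.0 CPM with saline and 1039 ± 34.4 CPM with Htt ASO, and Prkar1b was 347 ± 15.4 and 330 ± 6.38 CPM (SD, n = 6 each). Control ASO against saline called 0 of the 10 genes and 0% of all genes, averaged and in each genotype, by limma after voom. Averaged over genotypes, Gnal had an unadjusted p under 0.05 with control ASO against saline too (0.05, SE 0.0246, adjusted p = 0.615). Over all genes, 1357, 512 and 2080 had an unadjusted p under 0.05 in these comparisons (averaged, HttQ111/+ and Htt+/+), and DESeq2 called 1 gene in HttQ111/+ and 7 genes in Htt+/+ mice, none of them among the 10. The comparisons share control groups and so are not independent of each other.

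Within groups, the 10 genes varied together in sets. After the group mean was subtracted from each log2 CPM value, the 35 mice gave a Pearson r of 0.84 (Spearman rho 0.80) for Adcy5 with Ppp1r1b, 0.78 (0.79) for Adcy5 with Gng7 and 0.78 (0.75) for Adcy5 with Ptpn5. A second set held Gnal, Arpp21 and Arpp19, with r of 0.81 (rho 0.81) for Arpp21 with Arpp19, 0.78 (0.78) for Gnal with Arpp21 and 0.78 (0.77) for Gnal with Arpp19. Across these sets r ran from 0.02 (rho 0.02) for Gnal with Ppp1r1b to 0.67 (0.63) for Arpp21 with Ptpn5, just under the lowest value within a set, 0.69 (0.65) for Ppp1r1b with Ptpn5, so the sets were not sharply separate. Prkaca and Prkar1b varied together (0.72, rho 0.69) and against the second set, with r of -0.60 (rho -0.56) for Prkar1b with Arpp21 and -0.54 (-0.49) for Prkaca with Gnal. When the 2 mice farthest from the median of the first gene were left out, r was 0.80 for Adcy5 with Ppp1r1b, 0.82 for Arpp21 with Arpp19, 0.66 for Prkaca with Prkar1b and -0.48 for Prkar1b with Arpp21. The pairs come from the same libraries and so share depth, scaling, dissection and lane, and the 45 values are given as a description without a test.

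**Figure D5:**
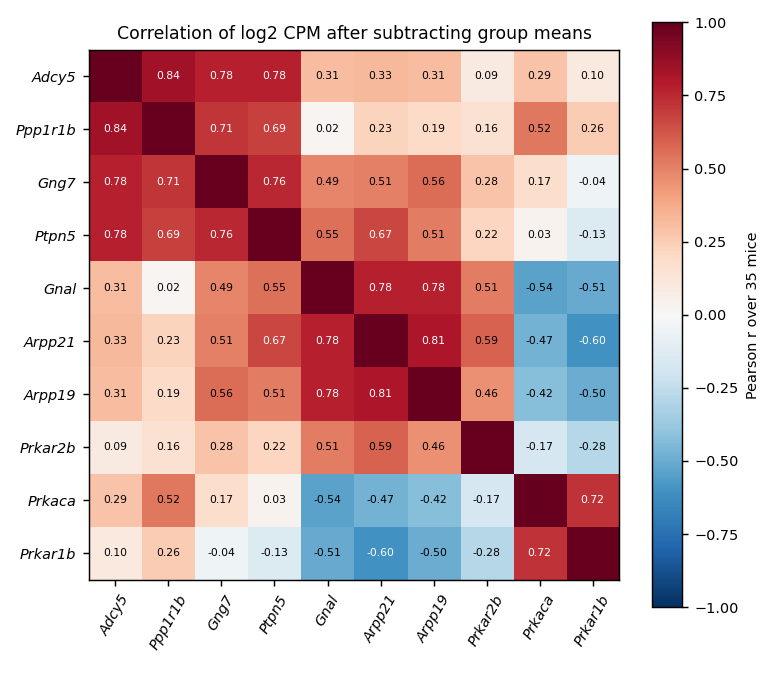
Pearson r between each pair of the 10 genes over 35 mice, for log2 CPM after subtraction of the group mean. Adcy5, Ppp1r1b, Gng7 and Ptpn5 form a block with r from 0.69 to 0.84, Gnal, Arpp21 and Arpp19 a block with r from 0.78 to 0.81, and Prkaca with Prkar1b a pair at 0.72.

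Low genes aside, 15089 other genes were compared, and those most alike to each member were named by the same within-group Pearson r. The 3 most alike to Adcy5 were Pde1b (0.90), Smpd3 (0.89) and Rasgrp2 (0.88), and those to Ppp1r1b were Slc8a2 (0.93), Phyhip (0.92) and Centb5 (0.92). Gng7 was most like Ngef (0.90), Cx3cl1 (0.876) and Drd2 (0.875), and Ptpn5 was most like Sh2d5 (0.95), Gnb5 (0.90) and Penk1 (0.88). Slmap appeared for both Gnal (0.85, after Nckap1 at 0.88 and Socs5 at 0.865) and Arpp21 (0.90, before Drd1a at 0.89 and AK190196 at 0.84). Arpp19 was most like Chn1 (0.89), Rgs4 (0.85) and the calcineurin subunit Ppp3ca (0.84). The PKA subunits had other neighbours, with Dctn2 (0.89), mboct (0.86) and Ube2m (0.85) for Prkaca, Syp (0.84), Maged1 (0.81) and AK158030 (0.80) for Prkar1b, and Hnrpk (0.81), Tusc3 (0.80) and Gabra4 (0.80) for Prkar2b. Over 35 mice, the largest of so many values of r is high by selection alone, so these values are descriptions.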

How the data were processed

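RNA of the striatum of 35 mice was sequenced as paired reads from stranded mRNA libraries. The authors aligned reads with Bowtie 0.12.9 to the mouse transcriptome (mm9) and estimated expected counts per gene with RSEM 1.1.18, and the deposited values are these expected counts, unscaled. Mice were grouped by genotype and treatment from the labels, where the active oligonucleotide was taken as Htt ASO by elimination. Genes were filtered with filterByExpr of edgeR 4.0.16 (minimum count 10, minimum total 15), which left 17639 of 22099. Counts were scaled by TMM and fitted with limma 3.58.1 after voom, with 1 mean per group over all 6 groups (R 4.3.3), and p-values were adjusted by Benjamini-Hochberg over all genes tested. Log2 CPM used a prior count of 2. Counts were rounded to whole numbers only for the edgeR quasi-likelihood and DESeq2 1.42.0 alternatives. Exact permutation tests and ratios were computed in Python 3.11.15. The labels give no litter or cage, so p-values measure the spread between mice taken as independent. Any likeness of mice from the same litter or cage was not modelled. On simulated counts with 200 changed genes among 17639, the limma fit recovered 181 with 7 false calls. It made 0 calls when none was changed. These counts are for the genotype difference averaged over treatments and are not split by the size of the difference. Recovery in the comparisons between treatments was not tested. Library totals ran from 32200158 to 38641924, and the 85 pairs of mice of the same group differed by more than sampling noise (chi-square per degree of freedom 3.57 to 16.5).

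The members, gene lists and tests were chosen with earlier results of these data known. In each list of pathway genes, named genes were those called with the smallest adjusted p, up to 4 per list, with Gnas, Prkacb, Prkar1a and Prkar2a as the nearest relatives of members, while Oprm1, Ensa and Pde4d were chosen after their values were seen. Some genes that this rule names are not reported here. As most alike, genes averaging 1 CPM or more were ranked. Symbols Akap4, Akap5, Sik3 and Gpr52 were not analysed here. Exons of Gnal, Ppp1r1b and Arpp21 overlap a gene on the other strand and those of Prkar1b a gene on the same strand in GENCODE M21, so counts of these 4 genes could be shared with it. Promoter windows came from RefSeq (GRCm38.p6), a later build than that of the counts, and served only for sequence.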

Additional observations from a re-analysis of the deposited data

Results flagged for a closer look

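In 60 combinations of gene and group, 2 held a mouse far from the others of its group by Dixon's criterion, which chance meets in about 1 in 20 groups. Both lay in the HttQ111/+ Htt ASO group. Prkar2b was 152 CPM in replicate 4, and the next lowest mouse was at 168 CPM. Arpp19 was 590 CPM in replicate 6, and the next highest mouse was at 535 CPM.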

How the results depend on the processing

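The 90 results were recomputed under up to 48 alternatives, 35 of which left out 1 mouse each. The direction of the averaged genotype difference held for all 10 genes, and the calls of 9 of them held in every alternative. Prkar2b was called in 16 of 46 alternatives. Within treatments, the number of genes called higher moved with Prkaca. In saline mice it went from 1 to 2 with DESeq2, library totals, a filter at a mean of 1 CPM and sample quality weights, and between 1 and 2 when 1 mouse was left out. In Htt ASO mice it moved in the same way, from 1 to 2 under those alternatives and between 1 and 2 without 1 mouse. In control ASO mice it went from 2 to 1 with lane as a covariate, without lane 7, without the left hemistriatum mouse and with only the groups compared, and between 1 and 2 without 1 mouse. Gng7 in saline mice was lost with only the groups compared (adjusted p = 0.0508). The control ASO difference of Prkar2b turned to 0.00355 with library totals and to 0.00277 with lane as a covariate. By the permutation test, the log2 ratio of Arpp21 to Arpp19 passed the threshold without lane 7 (-0.0557, adjusted p = 0.0252). It also passed in some fits without 1 mouse, for example without Htt+/+ saline replicate 3 (adjusted p = 0.0191). Without 1 mouse this ratio ran from -0.0487 to -0.0338, and that of PKA regulatory to catalytic subunits from 0.0109 to 0.0227. The PKA ratio passed the threshold without Htt+/+ saline replicate 3 (0.0227, adjusted p = 0.0393). The cause was not tested.

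Over all genes, library totals raised the genes called higher from 3842 to 5830 averaged, from 1530 to 2713 in saline and from 1929 to 4074 in Htt ASO mice. Without lane 7, control ASO mice had 918 genes lower and 984 higher in place of 1493 and 1773. Htt ASO against control ASO went from 165 to 105 without lane 7 averaged, from 63 to 98 (DESeq2) and 29 (without lane 7) in HttQ111/+ mice, and from 52 to 34 without Htt+/+ control ASO replicate 4 and to 27 with only the groups compared in Htt+/+ mice. Htt ASO against saline in HttQ111/+ mice went from 98 to 152 with DESeq2 and to 63 without HttQ111/+ saline replicate 3. No treatment or interaction comparison called any of the 10 genes under an alternative. No paired analysis was possible because the labels give no replicate numbers, those used here only name mice within a group, and the labels do not say what the shared letters of mouse names mark.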
